A study of Mus musculus with 40 samples.

Results

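The genes described here are 8 mouse kidney transcripts, Kap, Odc1, Timd2, Cyp7b1, Acsm3, Gusb, Cyp4b1 and Prlr, listed together as androgen-responsive genes and a receptor. They were found among the 55359 Ensembl gene identifiers of the deposited count tables by matching identifiers to symbols. All 8 passed the filter on low counts, which left 17345 genes for testing. The right kidneys of 40 male C57BL/6 mice had been profiled by bulk RNA sequencing, with 5 mice in each of 8 groups. The labels name no genetic change. The mice received sesame oil alone (vehicle) or TCDD in sesame oil at 0.03, 0.1, 0.3, 1, 3, 10 or 30 µg/kg by gavage and were dosed 7 times, once every 4 days, over 28 days. They were 30 days old at the start and 58 days old at the end. TCDD (2,3,7,8-tetrachlorodibenzodioxin) is a dioxin that binds and activates the aryl hydrocarbon receptor (AhR) and is cleared slowly.

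The mouse kidney differs strongly between the sexes. Testosterone and its metabolite dihydrotestosterone act on proximal tubule cells and control a set of tubular transcripts that are abundant in males. Kap, Odc1 and Gusb are classical examples of this set and were used early to study how androgens act on gene expression. Prlr encodes the prolactin receptor, a cytokine receptor that signals through JAK2 and STAT5.

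At the highest dose, 7 of the 8 genes fell and Prlr rose. At 10 µg/kg the fit to all groups called Prlr alone, and at the 5 lower doses it called none of the 8. Cyp4b1 was also called lower at 10 µg/kg when only that dose and vehicle were fitted. Such a fit of the highest dose and vehicle called only Timd2, lower, and Prlr, higher. The falls ranged from Gusb, at 80.0% of the vehicle mean, to Acsm3, at 19.2%.

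The start regions of the genes are shown first, because 7 members moved in 1 direction and androgens and the AhR both act on genes through DNA motifs. RefSeq promoter sequences (build GRCm38.p6) were matched for 7 of the 8 members, with 10 annotated starts among them. Cyp7b1 is named only. Each run below is the 250 bases before an annotated start, read 5′ to 3′ on the gene's strand. Capitals mark TGTTCT, an arm of the androgen response element, and GCGTG, the core bound by the AhR with its partner, each searched on both strands, so that AGAACA and CACGC also count. The motifs can share letters at their ends, which did not occur in the runs shown. The runs are Kap as the member with the highest level per length, Odc1 and Acsm3 as the members with more than 1 GCGTG, and Cyp4b1 and 1 of the 3 starts of Prlr as the only ones with TGTTCT.
Kap, chr6:133853668-133853917, minus strand: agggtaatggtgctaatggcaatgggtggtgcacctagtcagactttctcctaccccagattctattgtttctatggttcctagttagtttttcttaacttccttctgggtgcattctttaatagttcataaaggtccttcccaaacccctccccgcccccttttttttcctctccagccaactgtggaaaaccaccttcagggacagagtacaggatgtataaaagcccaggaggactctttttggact
Odc1, chr12:17544623-17544872, plus strand: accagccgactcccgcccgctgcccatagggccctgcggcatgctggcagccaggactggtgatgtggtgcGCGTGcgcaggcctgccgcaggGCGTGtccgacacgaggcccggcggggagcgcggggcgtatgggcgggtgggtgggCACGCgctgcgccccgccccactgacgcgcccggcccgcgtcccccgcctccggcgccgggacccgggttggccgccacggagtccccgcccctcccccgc
Acsm3, chr7:119760673-119760922, plus strand: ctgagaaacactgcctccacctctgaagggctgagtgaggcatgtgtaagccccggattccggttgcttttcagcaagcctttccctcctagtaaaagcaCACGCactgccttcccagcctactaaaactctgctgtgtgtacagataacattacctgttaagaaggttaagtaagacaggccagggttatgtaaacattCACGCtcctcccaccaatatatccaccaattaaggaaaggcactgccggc
Cyp4b1, chr4:115647722-115647971, minus strand: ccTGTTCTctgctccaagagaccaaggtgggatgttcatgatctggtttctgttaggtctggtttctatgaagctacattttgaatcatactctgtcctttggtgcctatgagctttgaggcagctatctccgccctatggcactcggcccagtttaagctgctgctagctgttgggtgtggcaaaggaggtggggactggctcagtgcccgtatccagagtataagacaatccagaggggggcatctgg
Prlr, chr15:10223656-10223905, plus strand: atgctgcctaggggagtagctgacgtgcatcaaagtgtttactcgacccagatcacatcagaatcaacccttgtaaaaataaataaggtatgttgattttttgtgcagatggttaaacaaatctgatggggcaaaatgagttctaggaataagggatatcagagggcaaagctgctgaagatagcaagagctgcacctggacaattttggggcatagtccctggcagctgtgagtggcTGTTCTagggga

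TGTTCT was present in 2 of the 10 member windows, against 16.1% of all 32851 promoter windows of the same length. In Cyp4b1 it starts 248 bases before the start site, and in Prlr 12 bases before it. GCGTG was present in 3 of the 10 windows, those of Odc1, Acsm3 and Gusb, against 28.2% of all windows. Odc1 held 3 copies, the first 179 bases before its start. The complete spaced element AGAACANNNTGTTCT was in none of the 10 and in 3 of all windows (0.00913%). Kap and Timd2 held neither short motif. These are letter matches in short windows and say nothing on binding.

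Levels are given as CPM, the count of a gene scaled to its library's total gene count, with TMM factors between libraries. Libraries held 15278423 to 25575317 gene counts. The summed proximal tubule S1-S2 markers ranged from 8283 to 16005 CPM over the vehicle and 30 µg/kg libraries, and skeletal muscle markers reached at most 0.557 CPM there. Summed adrenal cortex markers stood out in 3 dosed libraries (578 CPM for replicate 1 of 0.03 µg/kg, 620 CPM for replicate 4 of 1 µg/kg and 34.6 CPM for replicate 2 of 3 µg/kg) and were at most 8.27 CPM in every other library. Replicate numbers only name libraries, and the labels do not say how the animals were housed or in what order the RNA was prepared, so the p-values measure the spread between these animals. In bulk tissue, fewer cells of a type and less RNA per cell cannot be told apart. All tests are two-sided and use edgeR's quasi-likelihood test on all 40 libraries with Benjamini-Hochberg adjustment over the 17345 genes, and a gene is called at an adjusted p under 0.05.

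Per length of annotated exonic sequence the 8 genes spanned a wide range in vehicle kidneys. The order was Kap (21580 CPM per kb), Cyp4b1 (1632), Odc1 (258), Cyp7b1 (76.5), Acsm3 (54.1), Timd2 (19.9), Gusb (8.73) and Prlr (0.878). At 30 µg/kg Kap still led with 9177 CPM per kb and Cyp4b1 followed with 782. Prlr (6.28) was then close to Gusb (6.98), and Timd2 (11.0) was level with Acsm3 (10.4). The Acsm3 level is a lower estimate, for the reason given with that gene.

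**Figure D1:**
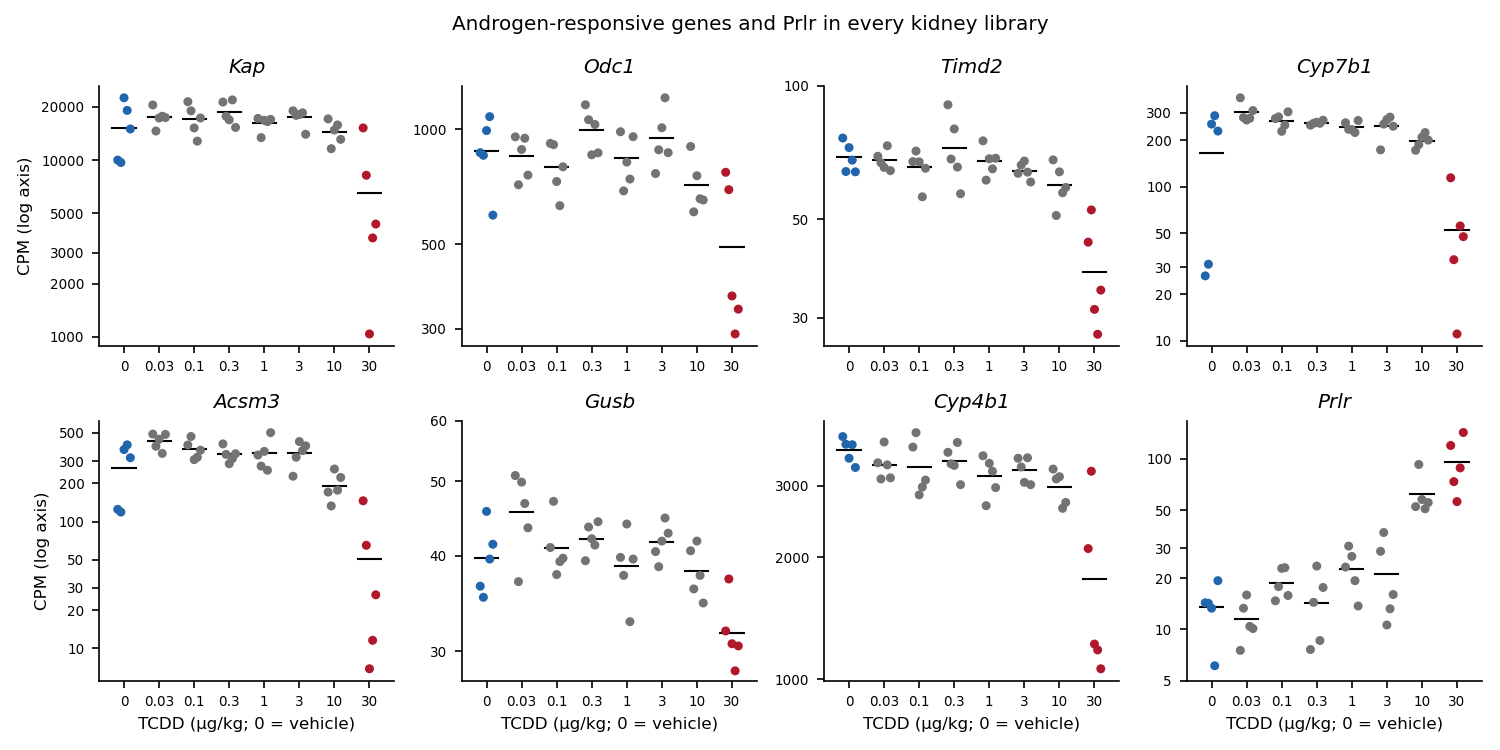
CPM (log axes) of the 8 genes in all 40 libraries by dose, with vehicle in blue, 30 µg/kg in red, the other doses in grey and black lines at the group means. The 7 falling genes lie lowest at 30 µg/kg, Prlr rises from 10 µg/kg, and vehicle replicates 1 and 2 lie apart from the other vehicle libraries for Kap, Cyp7b1 and Acsm3.

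At 30 µg/kg against vehicle, 7 of the 8 members were called lower, where 7.55% of all genes tested were. Prlr was called higher, where 8.39% of all genes were. The median log2 fold change of the 8 was -0.96, against 0.01 for all genes. All 5 libraries at 30 µg/kg lay below all 5 vehicle libraries for 2 of the members, Timd2 and Cyp4b1, and 2.83% of all genes showed this. Prlr was the only member with all 5 above, as for 3.59% of all genes. A fit to these 10 libraries alone, in place of all 40, called 2 of the 8, Timd2 lower (2.19% of the genes it tested) and Prlr higher (4.09%), with adjusted p-values of 0.0621 to 0.309 for the other 6 in edgeR.

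Kap, the kidney androgen-regulated protein, is a small secreted protein of the proximal tubule. Vehicle kidneys held 10000, 9690, 22500, 19100 and 15000 CPM (replicates 1 to 5). Those at 30 µg/kg held 15200, 8210, 1040, 3630 and 4350 CPM. Replicate 1 was thus inside the vehicle range, replicates 2 to 5 were below it, and replicate 3 held 6.81% of the vehicle mean. The mean went from 15256 ± 5599 CPM (SD, n = 5) to 6488 ± 5510, a log2 fold change of -1.23 ± 0.35 (SE, adjusted p = 0.0116 in edgeR). Without replicate 1 of this dose it was -1.83. Between 0.03 and 10 µg/kg the group means stayed between 14494 and 18644 CPM.

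Odc1 encodes ornithine decarboxylase, which makes putrescine and is the first enzyme of polyamine synthesis. In vehicle kidneys it stood at 869, 855, 993, 1080 and 596 CPM, and at 30 µg/kg at 772, 695, 366, 291 and 338. Replicates 3 to 5 were below every vehicle library, while replicates 1 and 2 lay among them. Its log2 fold change was -0.84 ± 0.20 (SE, adjusted p = 0.00342 in edgeR), from 879 ± 184 to 492 ± 223 CPM (SD, n = 5).

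Of 10 other polyamine genes, of synthesis, breakdown and control, 2 were called lower (Sms and Amd1), 1 higher (Paox) and 7 not, where 7.55% of all genes were called lower and 8.39% higher. Their median log2 fold change was -0.10. Paox, an oxidase of acetylated polyamines, had the lowest p among them, with 7.56 ± 0.982 CPM in vehicle and 12.6 ± 5.29 at 30 µg/kg (log2 fold change 0.74, adjusted p = 0.00291 in edgeR). The antizymes Oaz1 and Oaz2, which bind ornithine decarboxylase and send it for breakdown, were at log2 fold changes of -0.17 and -0.19, and neither passed the test (adjusted p = 0.0688 and 0.101 in edgeR). Sat1, which acetylates spermidine and spermine, was at 0.04 and the antizyme inhibitor Azin1 at -0.03.

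Gusb encodes beta-glucuronidase, a lysosomal hydrolase whose androgen response in mouse kidney is a textbook example. It changed least of the 8. Levels were 36.5, 35.3, 45.7, 39.6 and 41.4 CPM in vehicle and 31.9, 37.3, 30.7, 28.3 and 30.5 at 30 µg/kg. Replicate 2 was inside the vehicle range and the other 4 were below it. This was a log2 fold change of -0.32 ± 0.09 (SE, adjusted p = 0.00623 in edgeR).

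Cyp4b1, a cytochrome P450 that hydroxylates fatty acids and activates some xenobiotics, came second in level per length. The vehicle libraries held 3970, 3800, 3510, 3790 and 3330 CPM, a tight group of 3681 ± 256 (SD, n = 5). Those at 30 µg/kg held 2100, 3260, 1220, 1180 and 1060 CPM. All 5 were below all vehicle libraries, replicate 2 only narrowly, and replicates 3 to 5 lay close together. Its log2 fold change was -1.06 ± 0.18 (SE, adjusted p = 8.02e-05 in edgeR).

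Timd2, a TIM-family membrane protein that takes up H-ferritin, gave the smallest p among the falling members. Control values were 76.3, 64.1, 72.6, 68.0 and 64.0 CPM, and those at 30 µg/kg 44.4, 52.5, 31.3, 27.5 and 34.6. The groups did not overlap. This gave a log2 fold change of -0.86 ± 0.11 (SE, adjusted p = 4.04e-07 in edgeR).

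Cyp7b1 encodes an oxysterol 7-alpha-hydroxylase that also hydroxylates steroids, among them metabolites of dihydrotestosterone. Its vehicle libraries split, with 26.4 and 31.4 CPM in replicates 1 and 2 and 254, 288 and 229 in replicates 3 to 5. Those at 30 µg/kg held 114, 33.6, 11.1, 55.6 and 47.4 CPM. Only replicate 3 was below every vehicle library, but all 5 were below all 30 libraries of the doses from 0.03 to 10 µg/kg, which spanned 172 to 376 CPM. The log2 fold change against vehicle was -1.66 ± 0.44 (SE, adjusted p = 0.00711 in edgeR), and -2.30 with vehicle replicates 1 and 2 left out.

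Acsm3, a mitochondrial medium-chain acyl-CoA synthetase, fell furthest. Vehicle kidneys held 125, 119, 370, 403 and 319 CPM, and those at 30 µg/kg 146, 65.1, 6.92, 11.6 and 26.5. Replicates 2 to 5 were below every vehicle library, and replicate 3 held 2.59% of the vehicle mean. Its log2 fold change was -2.38 ± 0.47 (SE, adjusted p = 0.000413 in edgeR). Without replicate 1 of this dose it was -3.27.

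The Acsm3 count leaves out part of its reads. In the GENCODE M21 annotation (GRCm38), 39.7% of its exonic bases are shared with Eri2 on the opposite strand. The unstranded column held 45.7% of the counts that the 2 stranded columns gave it together, against at least 99.9% for each other member. In 1 of the 2 stranded columns, taken here as sense, Acsm3 held 234, 222, 832, 811 and 606 CPM in vehicle. At 30 µg/kg it held 326, 131, 17.6, 24 and 53.6, with a log2 fold change of -2.29 (adjusted p = 0.000763 in edgeR). Eri2 in that column held 137, 122, 515, 486 and 334 CPM in vehicle and 208, 66.4, 16.5, 23.3 and 43.1 at 30 µg/kg. Its log2 fold change was -2.16 (adjusted p = 0.000525 in edgeR). The column was thus not shown to separate the strands, and reads over the shared bases cannot be assigned to 1 of the pair.

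Prlr rose from a low level. Vehicle kidneys held 14.3, 14.2, 13.3, 6.11 and 19.3 CPM, those at 10 µg/kg 52.5, 92.8, 57.8, 51.0 and 55.5, and those at 30 µg/kg 120, 73.6, 56.2, 88.6 and 143. Every library of both doses was above every vehicle library, which at 10 µg/kg held for 4.32% of all genes, and the 2 doses overlapped. The log2 fold change was 2.20 ± 0.34 at 10 µg/kg (SE, adjusted p = 3.09e-05 in edgeR) and 2.83 ± 0.34 at 30 µg/kg (adjusted p = 4.04e-07). Between the 2 doses it was 0.64 ± 0.31 (adjusted p = 0.334), which did not pass the test.

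At 30 µg/kg edgeR called 7.55% of all genes lower and 8.39% higher. Of 7 genes of prolactin and growth hormone signalling, 0 were called at this dose by edgeR or by DESeq2. Of them 1 (Socs2) was under an unadjusted p of 0.05. Their median log2 fold change was 0.08. Ghr, the growth hormone receptor, went from 617 ± 168 to 505 ± 157 CPM (SD, n = 5, adjusted p = 0.21 in edgeR). Jak2, Stat5a and Stat5b, the kinase and transcription factors of both receptors, were at log2 fold changes of 0.12, -0.04 and 0.08. Socs2, a feedback inhibitor induced by STAT5, had the lowest p of the list, with 9.08 ± 2.10 CPM in vehicle and 19.6 ± 13.3 at 30 µg/kg (log2 fold change 1.10, adjusted p = 0.0985 in edgeR).

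**Figure D2:**
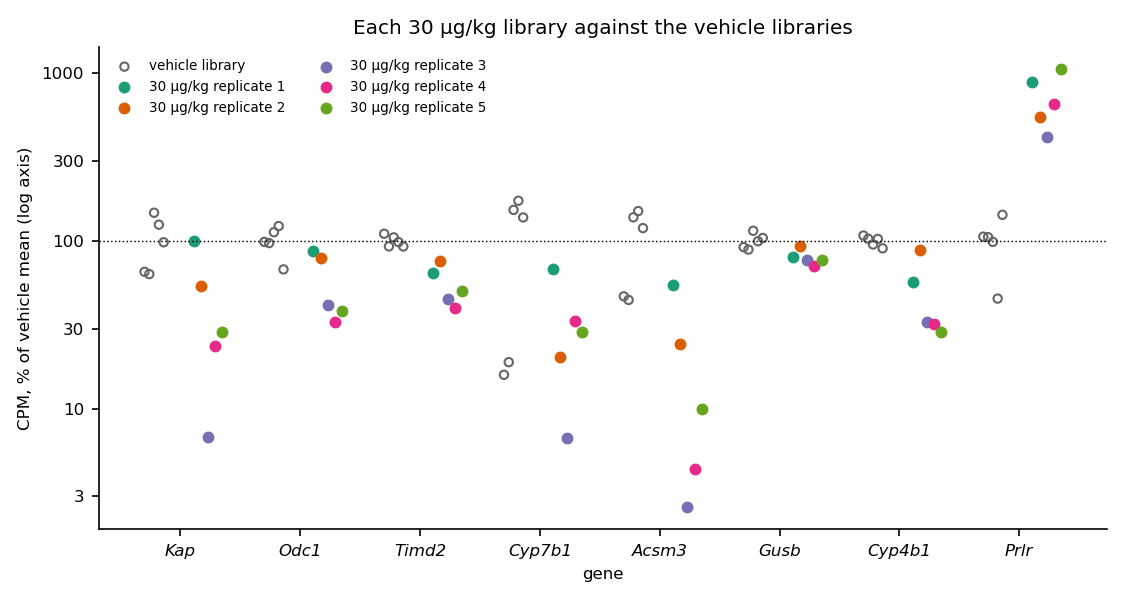
CPM of each library as a percentage of the vehicle mean (log axis), for the 5 vehicle libraries (open circles) and the 5 libraries at 30 µg/kg (coloured by replicate). Replicates 1 and 2 lie nearest to vehicle for the falling genes, with Cyp7b1 in replicate 2 as an exception, and all 5 lie far above it for Prlr.

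The 5 kidneys at 30 µg/kg differed in their levels of the members. Over the 8 members the median level was 74.4% and 77.5% of the vehicle mean in replicates 1 and 2, and 37.3%, 33.3% and 33.6% in replicates 3, 4 and 5. The number of members below all vehicle libraries was 3 and 4 in replicates 1 and 2, and 7, 6 and 6 in replicates 3 to 5. Replicate 3 held the lowest value of the group for 4 members and replicate 4 for 3. With replicates 1 and 2 of this dose left out, a choice made after seeing the data, the log2 fold change was -4.11 for Acsm3, -2.35 for Kap, -1.68 for Cyp4b1 and -1.41 for Odc1. Prlr did not follow this order, since replicates 1 and 5 were the highest and replicate 3 the lowest. The AhR target Cyp1a1 did not follow it either, at 2880, 2090, 2070, 3000 and 2640 CPM in replicates 1 to 5, against 1.15 to 4.00 in vehicle. All 6 genes of the AhR battery were called higher (8.39% of all genes), and their part in the members' spread was not tested.

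The spread within a group was widest at 30 µg/kg for Kap, Odc1, Timd2, Acsm3 and Cyp4b1. Coefficients of variation there were 84.9% for Kap, 45.4% for Odc1, 26.8% for Timd2, 113% for Acsm3 and 53.0% for Cyp4b1, against 36.7%, 21.0%, 7.82%, 50.8% and 6.96% in vehicle and at most 19.4%, 18.0%, 18.2%, 28.5% and 15.6% in any group from 0.03 to 10 µg/kg. Gusb (10.5%) and Prlr (36.5%) varied no more than at lower doses. Cyp7b1 varied as much in vehicle (76.4%) as at 30 µg/kg (73.1%), and as little as 2.60% at 0.3 µg/kg. These percentages are descriptions of 5 libraries each.

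At 30 µg/kg replicates 3 to 5 were all below replicates 1 and 2 for 6 of the 8 members, all but Cyp7b1 and Prlr, and for 8 of 8 other androgen-responsive genes, where 15.1% of all genes showed this order. The order was looked for after the members' values had been seen. The width of the gap differed between genes. Cyp2j13, a P450 enriched in male kidney, held 228, 242, 16.3, 16.1 and 26.6 CPM, and the transporter Slc7a13 held 591, 348, 18.8, 71.4 and 149. In Nudt19, a peroxisomal hydrolase, replicate 2 was near replicates 3 to 5, with 407 and 208 CPM in replicates 1 and 2 and 133 to 164 in the other 3. Cyp2e1, a P450 that oxidises ethanol and other small molecules, showed no wide gap, with 949, 996, 797, 628 and 436 CPM.

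The sample titles are numbers, and each dose has libraries from both the range 1 to 27 and the range 28 to 53. All 8 members moved in the same direction in both ranges, and the differences in mean log2 CPM were larger in the second range. For Cyp7b1 they were -0.77 and -2.32, for Acsm3 -2.12 and -4.34, for Kap -1.36 and -2.09, and for Prlr 2.50 and 3.36. Vehicle replicates 1 and 2 and replicates 1 to 3 of the 30 µg/kg group are in the first range. With the range as a term in the fit, all 8 calls held.

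Below 10 µg/kg no member passed the test at any of the 5 doses in edgeR or in DESeq2. The share of all genes called lower was 0% at 0.03, 0.1 and 0.3 µg/kg, 0.00577% at 1 µg/kg and 0.0634% at 3 µg/kg. At an unadjusted p under 0.05 there were 2 members at 0.03 µg/kg (Cyp7b1 and Gusb, both above vehicle), 0 at 0.1 and 0.3, 1 at 1 µg/kg (Prlr, higher) and 0 at 3 µg/kg. At 10 µg/kg Prlr was called higher, where 3.82% of genes were, and 0 of 8 members were called lower by edgeR or DESeq2 (0 at an unadjusted p under 0.05), where 0.997% of genes were. Here 6 of the 8 were below vehicle in fold change, with a median of -0.14. Cyp4b1 was the nearest to a fall, at 2988 ± 290 CPM with all 5 libraries below all vehicle libraries (1.82% of all genes), a log2 fold change of -0.30 and an adjusted p of 0.449 in edgeR. The fit to vehicle and 10 µg/kg alone called it (adjusted p = 0.0298 in edgeR), where 1.15% of the genes it tested were lower.

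The step from 10 to 30 µg/kg was tested directly. Timd2 (log2 fold change -0.65, adjusted p = 0.000833), Cyp7b1 (-1.92, 0.0111), Cyp4b1 (-0.76, 0.0150) and Acsm3 (-1.91, 0.0161) were called lower by edgeR. These are 4 of 8 members, against 1.52% of all genes. Kap (-1.16, adjusted p = 0.0635), Odc1 (-0.54, 0.167) and Gusb (-0.27, 0.0853) did not pass. For Cyp7b1 the 2 groups did not overlap, as for 1.07% of all genes, with 172 CPM as the lowest value at 10 µg/kg and 114 as the highest at 30 µg/kg. This count rested on single libraries. It was 7 without replicate 2 of the 30 µg/kg group, 1 without replicate 3 (Timd2), 2 without replicate 4 (Timd2 and Cyp7b1), and 0 in a fit to the 2 groups alone, where 6 were under an unadjusted p of 0.05 in edgeR.

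Across the rank of dose, 4 members fell (Timd2, Acsm3, Gusb and Cyp4b1), where 8.84% of all genes did, and Prlr rose, where 11% did. The log2 change per dose step was -0.23 ± 0.07 for Acsm3, -0.09 ± 0.02 for Cyp4b1, -0.08 ± 0.02 for Timd2, -0.04 ± 0.01 for Gusb and 0.41 ± 0.04 for Prlr (SE). Odc1 (adjusted p = 0.0558 in edgeR), Kap (0.116) and Cyp7b1 (0.130) did not pass. Without the 30 µg/kg group the calls were 2, Cyp4b1 and Prlr. With vehicle replicates 1 and 2 left out they were 7, all but Odc1.

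The order of the dose means below 10 µg/kg differed between members. For Cyp7b1 the means at 0.03, 0.1, 0.3, 1, 3 and 10 µg/kg were 303, 268, 259, 244, 245 and 198 CPM, a nearly falling order. For 7 of the 8 genes 30 µg/kg had the lowest mean and for Prlr the highest. For Kap, Odc1, Timd2, Acsm3, Gusb and Cyp4b1 the libraries overlapped between every pair of neighbours in the order. Between 1 and 10 µg/kg they did not overlap for Cyp7b1, where 10 µg/kg was lower (as for 1.16% of all genes), nor for Prlr, where it was higher (2.2%). The Cyp7b1 groups all but touched, with a highest value of 224.27 CPM at 10 µg/kg and a lowest of 224.31 at 1 µg/kg. For Prlr the lowest value at 10 µg/kg was 51.0 CPM and the highest at 1 µg/kg 30.8. From high to low, the vehicle mean was number 1 of the 8 groups for Cyp4b1, 2 for Timd2, 3 for Odc1, 5 for Gusb, 6 for Kap and Acsm3 and 7 for Cyp7b1 and Prlr.

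**Figure D3:**
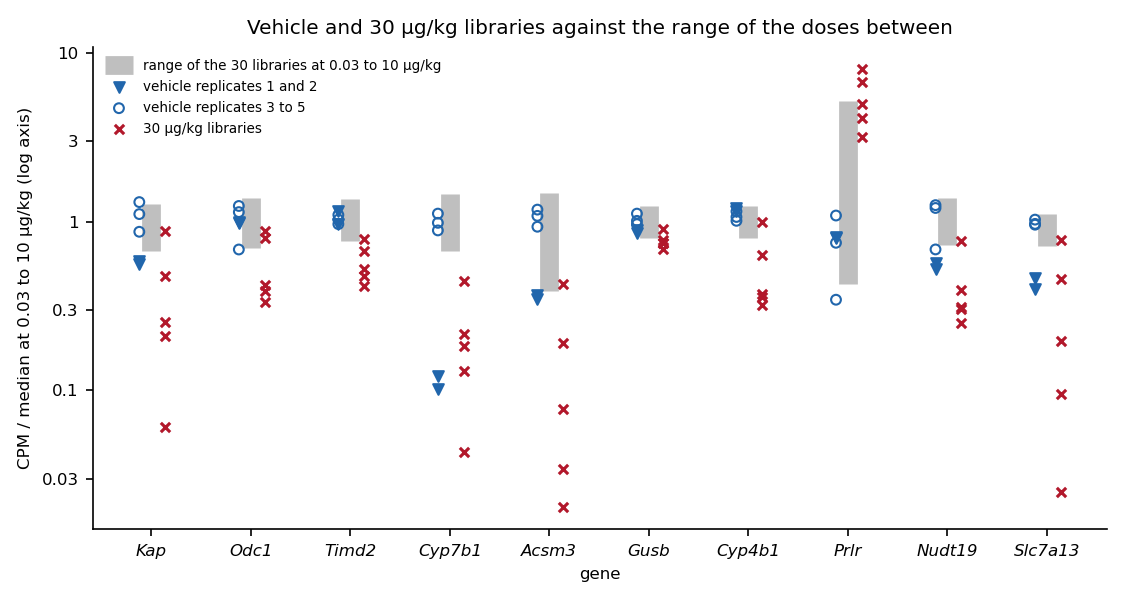
CPM divided by the median of the 30 libraries at 0.03 to 10 µg/kg (log axis), for the 8 members, Nudt19 and Slc7a13. Grey bars span those 30 libraries, blue triangles are vehicle replicates 1 and 2, open circles vehicle replicates 3 to 5 and red crosses the 30 µg/kg libraries. The triangles fall under the bar for Kap, Cyp7b1, Acsm3, Nudt19 and Slc7a13.

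Vehicle replicates 1 and 2 had low levels of some members without any TCDD. Both were below all 30 libraries of the doses from 0.03 to 10 µg/kg for Kap, Cyp7b1 and Acsm3, 3 of the 8 members, and 3.06% of all genes showed this. For Kap the lowest of those libraries held 11612 CPM and for Acsm3 133. Both vehicle libraries were inside that range for Odc1, Timd2, Gusb, Cyp4b1 and Prlr. Of 8 other androgen-responsive genes, both were below it for Nudt19 (275 and 300 CPM, lowest dosed library 382) and Slc7a13 (302 and 350, lowest 539). The same 2 libraries held the highest vehicle values of a pair of female-enriched genes, Cyp4a14 (37.2 and 38.7 CPM, against 15.3 to 22.9 in the other 3) and Abcc3 (8.24 and 9.27, against 3.68 to 5.16), but not of Slc7a12 (5.30 and 7.34, against 1.45 to 8.50). For each of these female-enriched genes, vehicle replicates 1 and 2 lay inside the range of the 30 libraries from 0.03 to 10 µg/kg. The Cyp7b1 values at 30 µg/kg, 11.1 to 114 CPM, thus include the level of 2 control kidneys. With these 2 libraries left out, all 8 members were called at 30 µg/kg and the log2 fold changes were -1.54 for Kap, -2.83 for Acsm3 and -0.42 for Gusb.

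Of 10 genes of steroid hormone metabolism and signalling, 4 were called lower (7.55% of all genes) and 0 higher in edgeR, while DESeq2 also called Ncoa4 higher and edgeR had it under an unadjusted p of 0.05, with a median log2 fold change of -0.19. These 4 were 3 chaperone proteins and a coactivator of steroid receptors. Fkbp4, a co-chaperone of steroid receptors, had the lowest p, with 319 ± 16.9 CPM in vehicle and 219 ± 48.2 at 30 µg/kg (log2 fold change -0.55, adjusted p = 1.92e-05 in edgeR). Hsp90aa1 and Hsp90ab1, which hold steroid receptors in a hormone-binding state, were at -0.54 and -0.31, and Ncoa2 at -0.26.

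**Figure D4:**
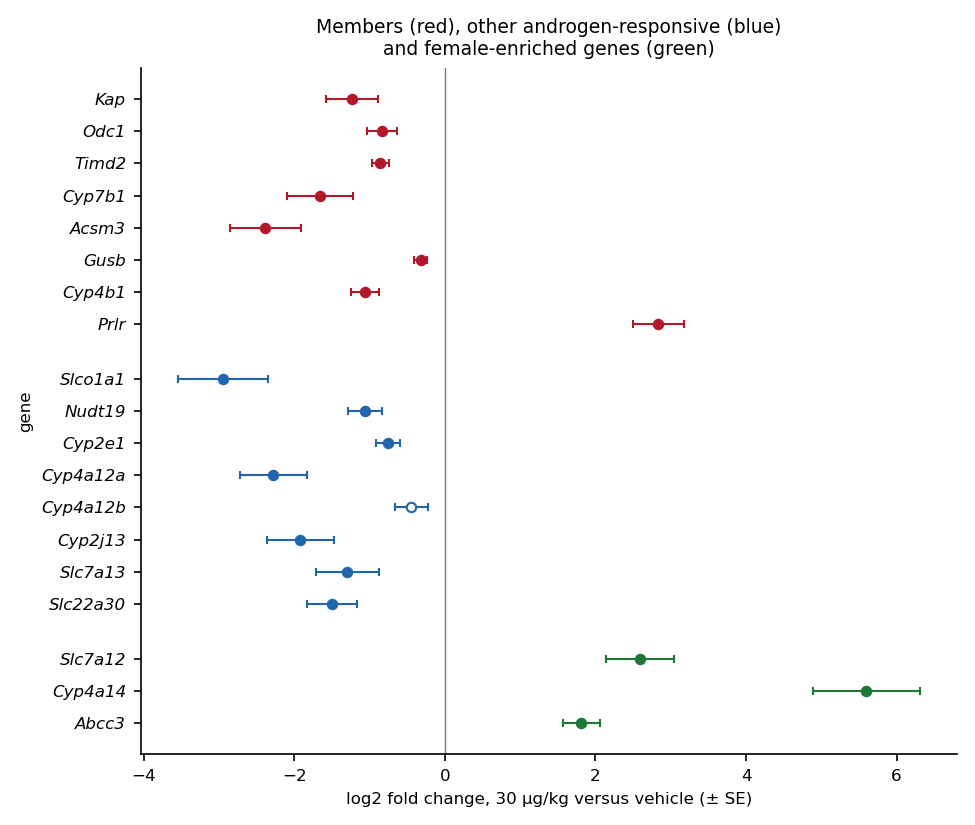
Log2 fold change at 30 µg/kg against vehicle (points) with its standard error (bars) for the 8 members, 8 other androgen-responsive genes and 3 female-enriched genes. Filled points passed an adjusted p of 0.05, and Cyp4a12b, drawn open, did not.

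Other genes known to be androgen-responsive in mouse kidney fell as well. Their list was chosen with earlier results of these data known, so its counts are descriptions and not separate support. Of 8 such genes 7 were called lower, where 7.55% of all genes were, with a median log2 fold change of -1.40. Cyp2e1 went from 1287 ± 137 to 761 ± 232 CPM (log2 fold change -0.76, adjusted p = 0.000726 in edgeR). Slc7a13, an S3 transporter of aspartate, glutamate and cystine, was at -1.29 (adjusted p = 0.0305), Cyp2j13 at -1.92 and Nudt19 at -1.06. Cyp4a12a, a male-enriched arachidonic acid hydroxylase, had the lowest p of the list (log2 fold change -2.28, adjusted p = 0.000398 in edgeR). Its near-identical copy Cyp4a12b did not pass (-0.45, 0.172). Reads that match both copies fall among the multimapping reads, which were left out. Nudt19 shares 35.0% of its exonic bases with a gene on the opposite strand.

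Genes that are more abundant in female kidney moved the opposite way. All 3 on the list were called higher at 30 µg/kg, where 8.39% of all genes were. This list too was chosen with earlier results of these data known. Slc7a12, an amino acid transporter of female proximal tubule, held 5.30, 7.34, 4.41, 1.45 and 8.50 CPM in vehicle and 49.1, 31.4, 12.9, 29.7 and 40.5 at 30 µg/kg, with no overlap (log2 fold change 2.59, adjusted p = 8.65e-05 in edgeR). It was also called at 10 µg/kg (2.10, 0.00208). Within the 30 µg/kg group its highest library was replicate 1 and its lowest replicate 3, and replicate 3 was the lowest for Prlr too. Cyp4a14, a fatty acid hydroxylase that PPAR-alpha agonists also induce, held 15.3 to 38.7 CPM in vehicle and 141, 171, 3390, 2000 and 623 at 30 µg/kg. Abcc3, an organic anion exporter, held 3.68 to 9.27 CPM in vehicle and 8.63, 15.4, 21.0, 29.9 and 30.5 at 30 µg/kg. Replicate 1 was thus inside the vehicle range. Its log2 fold change for the group was 1.81 (adjusted p = 8.61e-07 in edgeR).

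Markers of tubule segments also moved at 30 µg/kg, where 7.55% of all genes were called lower and 8.39% higher. Of 5 S3 markers 2 were called lower (Atp11a and Aadat), none was at 0, and their summed level was 1700 to 3111 CPM in vehicle and 967 to 2289 at 30 µg/kg. Of 7 S1-S2 markers 3 were called lower and 1 higher, with sums of 12125 to 16005 and 8283 to 14666 CPM. Of 4 macrophage markers 3 were called higher (sums of 46.8 to 102 and 77.9 to 122 CPM), as were 2 of 3 podocyte markers (217 to 297 and 310 to 422) and 2 of 3 endothelial markers (147 to 173 and 199 to 245). Of 4 fat markers Ucp1 alone was called higher (log2 fold change 3.17, adjusted p = 0.000962 in edgeR), and the sums did not overlap (50.8 to 153 CPM in vehicle, 159 to 397 at 30 µg/kg). The distal convoluted tubule marker Pvalb (-1.45), the intercalated cell marker Slc4a1 (-0.65) and the collecting duct marker Aqp3 (-0.25) were called lower, each as 1 of 2 or 3 markers of its list. Of 4 liver markers 1 was called higher (Serpina1a) and 1 lower (Ttr). Of 3 red blood cell markers and 3 thick ascending limb markers, 0 were called by edgeR or DESeq2 and 0 were under an unadjusted p of 0.05. The part of these changes in the members' levels was not tested.

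The members varied together within dose groups to different degrees. After each group mean was removed from log2 CPM, the 28 pairs of members had Pearson correlations from -0.42 to 0.87 over the 40 libraries, with a median of 0.45. Kap and Acsm3 were the most alike (0.87), followed by Odc1 with Timd2 and Odc1 with Cyp4b1 (both 0.75). Without the 30 µg/kg libraries this order changed: Cyp7b1 with Acsm3 was highest (0.83), Kap with Acsm3 was at 0.65, and the Odc1 pairs were at 0.57 and 0.56. With all libraries Cyp7b1 was close to Acsm3 (0.72) and not to Cyp4b1 (0.02). With all libraries Prlr was negative or near 0 with each of the other 7, with -0.42 against Odc1 as the extreme. Without the 30 µg/kg libraries it was negative with each, from -0.11 (Gusb) to -0.66 (Odc1). It was then at -0.47 with Acsm3 and -0.45 with Kap. The median over the 28 pairs was 0.31 without the 30 µg/kg libraries. These are descriptions over libraries that share depth and tissue sampling.

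Acy3, an aminoacylase that removes acetyl groups from mercapturic acids, was the gene most like the average of the members by the same measure (Pearson r = 0.96, Spearman rho = 0.91, 40 libraries). Slco1a1 (0.93), the cation transporter Slc22a2 (0.93), Slc22a30 (0.92) and Slco3a1 (0.92) came next. The lowest correlations were those of Abcc4 (-0.90), Cbr1 (-0.87) and Fgg (-0.86), which encode an organic anion exporter, carbonyl reductase and a fibrinogen chain. For Kap alone the 5 most alike were Acy3 (0.93), Guca2b (0.93), Slc7a13 (0.92), BC049987 (0.90) and Chst11 (0.89). Without the 30 µg/kg libraries Acy3 kept 0.86 with the member average and 0.87 with Kap, while Slc7a13 was at 0.58 with Kap. With the average, Slco1a1, Slc22a2, Slc22a30 and Slco3a1 were then at 0.76, 0.84, 0.74 and 0.75. Abcc4, Cbr1 and Fgg were at -0.69, -0.61 and -0.48. With Kap, Guca2b, BC049987 and Chst11 were at 0.70, 0.66 and 0.51. Over all 40 libraries Spearman rho was -0.51 for Fgg with the average, and 0.52 for Slc7a13 and 0.51 for Chst11 with Kap.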

How the data were processed

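Per the labels, total RNA from frozen right kidney (RNA integrity number at least 7) was made into libraries with an NEBNext Ultra kit. The authors deposited read counts per gene for each library, with an unstranded and 2 stranded columns, in the layout of STAR. The submitters' processing notes name FastQC 0.11.7, Trimmomatic 0.39, STAR 2.7.3a and DESeq2, and 2 genome builds, without saying which gave the counts. A further deposited table of log2-like values for the whole series was not used. The unstranded counts were analysed. Of 55359 identifiers 52083 were named with GENCODE M21. Lines naming no gene were left out (1.41 to 2.66% unmapped, 6.98 to 9.70% multimapping, 5.28 to 7.27% no feature, 5.40 to 5.98% ambiguous reads per library).

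Counts were filtered with filterByExpr, scaled by TMM (0.966 to 1.09) and fitted with edgeR 4.0.16 (R 4.3.3, robust quasi-likelihood, 1 mean per dose group, prior count 0.125). DESeq2 1.42.0 was an alternative. The scripts were tested on simulated data. Log2 CPM for correlations used a prior count of 2. Replicates differed by more than sampling noise (chi-square per degree of freedom at least 7.34 in 80 pairs), so each library was 1 replicate. Counting precision covers counting error only, since reads carry no molecular identifiers.

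The members and lists were chosen with earlier results of these data known. From each pathway list, at most the 4 genes with the highest mean CPM and the one with the lowest p at 30 µg/kg are named. Cyp4a12b, Amd1, Sms, Ncoa4, Eri2 and the cell type markers are named outside this rule after their values were seen. A gene of the steroid hormone list is not reported here. Proteins are not shown here.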

Additional observations from a re-analysis of the deposited data

Results flagged for a closer look

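Among the 64 sets of 5 libraries (8 members in 8 groups), 3 had an end library far from the other 4, with a gap above 0.71 of the range, where chance alone gives about 3.2. At 1 µg/kg, replicate 2 was low for Kap (13400 CPM, nearest other library 16500). At 3 µg/kg, replicate 5 was low for Kap (14000 CPM, nearest 17900). At 10 µg/kg, replicate 2 was high for Prlr (92.8 CPM, nearest 57.8). The vehicle values of Cyp7b1 did not meet this rule, because 2 libraries were low together.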

How the results depend on the processing

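No paired analysis was possible because the labels give no replicate numbers, and numbers in deposition order pair no libraries. All 8 calls at 30 µg/kg held with RLE factors, DESeq2, no filter, the stranded column taken as sense and a term for title range. They also held with each library left out in turn. The stranded column was not shown to separate the strands and comes from the same reads, so it is not a separate check. Over the left-out libraries the log2 fold changes were -0.96 to -1.83 for Kap and -2.11 to -3.27 for Acsm3. They were -1.37 to -2.16 for Cyp7b1 and 2.65 to 3.00 for Prlr. Vehicle replicates 1 and 2 left out together, and 30 µg/kg replicates 1 and 2 left out together, were chosen after seeing the data and also kept all 8.

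A fit to the 2 groups alone, with fewer libraries to estimate the spread, called 2 members at 30 µg/kg. There it called 969 genes, against 2766 in the fit to all groups. Such fits called 2 members at 10 µg/kg and 0 between 30 and 10 µg/kg. The fit to all groups shares 1 spread per gene over the 8 groups, while Kap, Odc1, Timd2, Acsm3 and Cyp4b1 varied most at 30 µg/kg. The count between 30 and 10 µg/kg was 7 with 30 µg/kg replicates 1 and 2 left out together and ranged from 1 to 7 over left-out libraries. The trend called 2 members without the 30 µg/kg group and 4 to 6 over left-out libraries. At 30 µg/kg 2014 to 3275 genes were called over left-out libraries. The cause of these shifts was not tested. With 5 animals a group and a spread as wide as that of Cyp7b1 in vehicle, changes at the lower doses were not detectable unless large.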
